A study of Homo sapiens with 23 samples.

Results

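The clustered protocadherin genes of 5q31 form 3 tandem arrays on the plus strand of chromosome 5, named alpha, beta and gamma. The members were the protein-coding genes of chromosome 5 whose GENCODE symbol starts with PCDHA, PCDHB or PCDHG, which gave 53 of the 57875 genes listed in each count file. Of these, 15 are alpha, 16 are beta and 22 are gamma genes, and together they span chr5:140786136-141512977 in GRCh38, a stretch of 727 kb. Steady state RNA levels were measured by RNAseq in wild-type HCT116 cells, a human colorectal cancer line, and in lines derived from it that carry a knockout of *AGO1*, of *AGO2*, of both genes (*AGO1/2*) or of these and *AGO3* (*AGO1/2/3*). Each of the 5 lines had 3 biological replicates and no further treatment. Argonaute (AGO) proteins carry microRNAs and other small RNAs to their target RNAs, and the last 2 lines were made to lack 2 and 3 of these proteins. Each genotype is represented by a single CRISPR-derived line, so that genotype and line cannot be told apart, and each comparison with wild-type cells uses the same 3 wild-type samples.

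Clustered protocadherins are cell surface adhesion proteins with cadherin repeats outside the cell. They are best known from neurons, where each cell uses its own combination of isoforms and contacts between matching isoforms let a neuron tell its own branches from those of others. Each alpha and gamma isoform starts from its own promoter and its own large variable exon, which is then joined to short constant exons used by the whole array, whereas the beta genes have no constant exons. The last genes of the alpha and gamma arrays are the C-type isoforms (PCDHAC1, PCDHAC2, PCDHGC3, PCDHGC4 and PCDHGC5), which differ from the others in sequence and in neurons are used less randomly. Choice among the promoters depends on DNA methylation and on looping to distal enhancers by CTCF and cohesin.

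The constant exons decide how far the levels of single genes can be read. In GENCODE release 44 the 15 alpha genes share 3 exon blocks of 59, 89 and 2721 bases, and the 22 gamma genes share 3 blocks of 59, 89 and 2029 bases. Exons shared with another member of the array made up 19.2% to 56.6% of the exon bases of an alpha gene (median 46.6%). They made up 27.5% to 64.4% of those of a gamma gene (median 43.8%), against 0 for the beta genes. Reads from these exons had to be divided among isoforms by the authors' quantification, and the beta variable exons resemble each other, so the level of a single gene is less certain than the sum over its array. Among the values above 0, 60% to 100% in the alpha array, 50% to 80% in the beta array and 63.6% to 85.0% in the gamma array were not whole numbers.

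The promoters of many of these genes carry a conserved element whose core is CGCT. A window around CGCT is shown for some of the genes on which the results turn. Sequences are from RefSeq (GRCh38.p14), which held 52 promoters, 250 bases before to 50 bases after the start, for 47 of the 53 members. Each window has 30 bases. The capitals mark CGCT, which by itself does not show that the element is present. The first group holds the 4 beta genes and 4 of the 8 gamma genes called higher in *AGO1/2/3*-labelled cells. The second holds 5 genes that were lower or not called.
PCDHB9, chr5:141187073-141187102, plus strand: tggaagccacaaggtggCGCTgcagactga
PCDHB10, chr5:141192298-141192327, plus strand: tggaggccacacggtggCGCTgcaggctaa
PCDHB13, chr5:141213864-141213893, plus strand: gtgaggacgcgtggtggCGCTgcaggataa
PCDHB14, chr5:141223262-141223291, plus strand: atggagacacatggtggCGCTacaggataa
PCDHGA9, chr5:141402713-141402742, plus strand: cttaggactctgagcgcCGCTgttgatcaa
PCDHGA10, chr5:141412930-141412959, plus strand: cttaggactctgagcgcCGCTgttcaccta
PCDHGA11, chr5:141420971-141421000, plus strand: gaatgggctctaggcgcCGCTgctcaccaa
PCDHGB3, chr5:141370161-141370190, plus strand: gcagaggcgccgggtgcCGCTcttggctag
PCDHGA8, chr5:141392567-141392596, plus strand: tttaggactgtaagcgcCGCTgttcaccta
PCDHA4, chr5:140806978-140807007, plus strand: ttggagccacatgatgtCGCTctttaccac
PCDHAC1, chr5:140926219-140926248, plus strand: agcctagaaggtgtggtCGCTcacgttcac
PCDHAC2, chr5:140966418-140966447, plus strand: ttgctgagccctcctacCGCTccctttccc
PCDHB1, chr5:141051273-141051302, plus strand: agactggggagttgagtCGCTcaatgcaaa
CGCT was found on the gene's strand in 51 of the 52 member promoters (98.1%), against 54.3% of the 35116 promoters in the table. It lay 30 to 100 bases before the start in 43 of the 52 (82.7%), against 21.6% of all promoters. On either strand, GGTGGCGCT was in 13 of 14 beta genes and in 0.501% of all promoters, and GATGTCGCT was in 9 of 11 alpha genes other than the C type and in 0.105% of all promoters. GCGCCGCT, seen in the windows of PCDHGA9, PCDHGA10, PCDHGA11 and PCDHGA8, was in 6 of 11 gamma A and 4 of 7 gamma B genes and in 3.17% of all promoters. The 3 longer strings contain CGCT and were chosen after the windows had been seen. The windows of PCDHGB3 (shown) and of PCDHGB7, PCDHGA5, PCDHGA6 and PCDHGB2 (not shown), all called higher, lack GCGCCGCT. That of PCDHGA8, not called, holds it. The counts of genes above are of whole promoters, which can hold the string outside the window. The PCDHGB7 window is identical to that of PCDHGB6, which was not called. A link between these strings and the calls was not tested. Over the 30 bases, windows of the gamma A genes were identical to each other at a median of 80.0% of positions (55 pairs) and those of the beta genes other than PCDHB1 at 75% (78 pairs), against 53.3% between both groups. The gamma B windows were less alike, at a median of 36.7% among themselves (21 pairs) and 43.3% against the gamma A windows. As all windows are aligned on CGCT, its bases match in each pair by construction. PCDHB1 has CGCT without the surroundings of the other beta genes, and the windows of PCDHAC1 and PCDHAC2 hold it without the 3 longer strings. As CGCT is in 54.3% of all promoters, it need not be the conserved element in such windows.

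Total estimated counts were 27709971 to 45271146 per sample, and the clustered protocadherins together took 42.5 to 74.4 CPM, a count scaled to a common sample total. The *AGO2* knockout samples were the deepest as a group (40419152 to 45271146) and their file headers name another quantification mode, which cannot be told apart from that genotype. AGO1 RNA was lower in the 3 lines edited at *AGO1* (log2 fold changes of -1.89, -1.84 and -2.01) and AGO3 RNA was lower in the *AGO1/2/3* line (-1.12). AGO2 RNA was lower in the *AGO2* line (-0.51), lay at -0.26 in the *AGO1/2* line (adjusted p = 0.0924) and was higher in the *AGO1/2/3* line (0.40, adjusted p = 0.00477). The last goes against that label at the RNA level. The RNA of an edited gene need not be lost with its protein. The study reports that the edits were verified by DNA sequencing and that Western blots showed loss of the targeted proteins. As neither can be read from the count files, the samples are called *AGO1/2/3*-labelled.

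Members were low in HCT116 cells. After edgeR's filter on low counts 28 of the 53 could be tested, namely 6 alpha, 7 beta and 15 gamma genes, and the other 25 never exceeded 17 counts in a sample. PCDHB6 had 0 counts in all 15 samples, and 3 counts, the limit that a count of 0 allows, correspond to 0.0672 to 0.111 CPM, here and below scaled by the TMM method, in these samples. PCDHB10 passed the filter only through the *AGO1/2/3*-labelled samples. In wild-type cells the level per kb of exon was highest for the C-type gene PCDHAC2, at 1.42 ± 0.17 CPM per kb (SD, n = 3), followed by PCDHGA10 at 1.24 ± 0.046, PCDHA4 at 0.69 ± 0.039, PCDHB1 at 0.56 ± 0.10 and PCDHAC1 at 0.38 ± 0.15. PCDHAC2 and PCDHGA10 did not differ beyond their spread, nor did PCDHB1 and PCDHAC1. PCDHA4 and PCDHAC2 together took 73.6% to 85.2% of the alpha counts in each of the 15 samples, and PCDHGA10 took 38.5% to 51.3% of the gamma counts. In bulk RNA, fewer cells using a gene and less RNA of it per cell cannot be told apart.

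Summed over an array, which does not depend on how reads were divided within it, the gamma genes were higher in *AGO1/2* knockout and *AGO1/2/3*-labelled cells, and the alpha genes overlapped between lines. The gamma sum was 17.6, 18.6 and 18.4 CPM in the wild-type samples, 26.5, 32.5 and 27.8 CPM in *AGO1/2* knockout cells and 39.0, 38.8 and 38.0 CPM in *AGO1/2/3*-labelled cells. Neither line overlapped with wild-type cells, and the ratios of the means were 1.59 and 2.12. In *AGO1* and *AGO2* knockout cells the gamma sum was 20.3 ± 1.73 and 16.4 ± 1.48 CPM (SD, n = 3), overlapping with 18.2 ± 0.512 CPM in wild-type cells. The alpha sum overlapped between wild-type cells and every other line, at 23.5 ± 1.48 CPM in wild-type and 24.2 ± 1.95 CPM in *AGO1/2/3*-labelled cells. With scaling to total counts only, the alpha ratio in *AGO1/2/3*-labelled cells turned from 1.03 to 0.931, and the gamma ratio was 1.92.

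**Figure D1:**
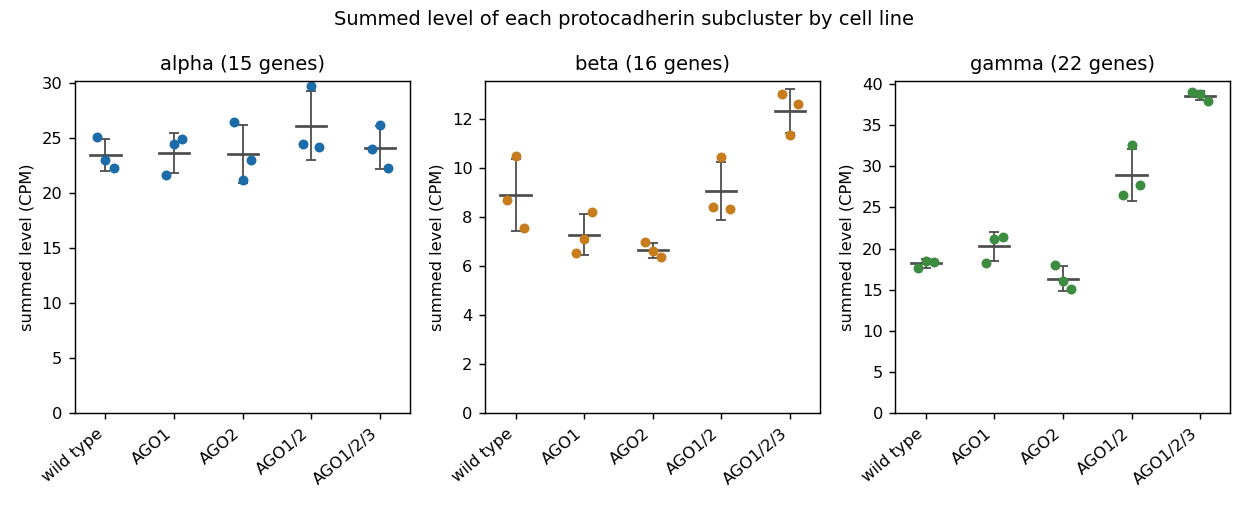
Summed level of the alpha, beta and gamma genes (y axis, CPM) in each sample of the 5 lines (x axis), with points for samples and bars for the mean and SD of 3 samples. The gamma sum is above wild type in the 3 *AGO1/2* and the 3 *AGO1/2/3*-labelled samples, and the alpha sums overlap.

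The counts assigned to gamma genes other than the leading one were higher too. Unlike the sum over the array, sums over parts of it depend on how reads from the shared exons were divided. Such part sums may hold reads that came from other gamma genes, PCDHGA10 among them. Without PCDHGA10, the other 21 gamma genes summed to 9.98 ± 0.523 CPM in wild-type, 15.7 ± 2.28 CPM in *AGO1/2* knockout and 20.1 ± 0.835 CPM in *AGO1/2/3*-labelled cells (n = 3 each), ratios of 1.58 and 2.02. By subgroup, the gamma A genes went from 13.1 ± 0.260 to 28.3 ± 0.902 CPM between wild-type and *AGO1/2/3*-labelled cells, and the gamma B genes from 3.22 ± 0.528 to 7.88 ± 1.05 CPM, without overlap. The 3 gamma C genes, at 1.84 ± 0.732 and 2.44 ± 2.09 CPM, overlapped.

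The beta sum was 8.89 ± 1.47 CPM in wild-type cells and 12.3 ± 0.881 CPM in *AGO1/2/3*-labelled cells, a ratio of 1.38 without overlap, and it hid opposite differences within the array. PCDHB1, which stands apart from the other beta genes in position, held 46.8% to 54.5% of the beta counts in wild-type samples and 19.8% to 22.9% in *AGO1/2/3*-labelled samples. Without PCDHB1 the beta sum was 4.43 ± 0.777 CPM in wild-type, 6.40 ± 0.857 CPM in *AGO1/2* knockout and 9.63 ± 0.861 CPM in *AGO1/2/3*-labelled cells, ratios of 1.45 and 2.18.

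Which single genes differed was tested by edgeR's quasi-likelihood test over 22842 genes, with p-values adjusted by the Benjamini-Hochberg method. Between *AGO1/2/3*-labelled and wild-type cells, 12 of the 28 tested members were called higher and 2 lower, while 20.3% of all tested genes were called higher and 19.8% lower. Of the 28 tested members, 12 had each *AGO1/2/3*-labelled sample above each wild-type sample and 2 had each below, against 26.3% and 23.8% of all tested genes. The arrays differed in their counts. In the gamma array 8 of the 15 tested genes were higher and 0 lower, in the beta array 4 of 7 were higher and 1 lower, and in the alpha array 0 of 6 were higher and 1 lower. DESeq2 called 11 higher and 2 lower in all, beside 15.8% and 15.9% of all genes it tested. At an unadjusted p under 0.05, 0 of the tested alpha genes were higher and 0 of the tested gamma genes lower. Median log2 fold changes were 0.99 for the gamma, 1.17 for the beta and 0.034 for the alpha genes tested, beside -0.0087 over all tested genes. PCDHB10 passed the filter only through samples in which it was high, and without it 3 of 6 beta genes were higher with a median of 0.64. The difference between arrays was not tested.

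Along the cluster, the 12 higher genes lay between PCDHB9 and PCDHGA11, whose starts are 401 kb and 635 kb from the first base of the cluster. Within that stretch PCDHB11, PCDHGA1, PCDHGA8 and PCDHGB6 were tested and not called. The 6 tested alpha genes, PCDHB1 and PCDHB16 lie before it, and PCDHGA12 and the gamma C genes lie after it. Members below the filter on low counts lie both before the stretch and within it. They were not tested, so the start of the stretch depends on that filter. PCDHGA12, the next gene after PCDHGA11, narrowly missed the threshold (log2 fold change 1.09 ± 0.43, adjusted p = 0.0571), with 13, 12 and 19 counts in wild-type and 44, 16 and 36 counts in *AGO1/2/3*-labelled samples, so the end of the stretch rests on that threshold.

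**Figure D2:**
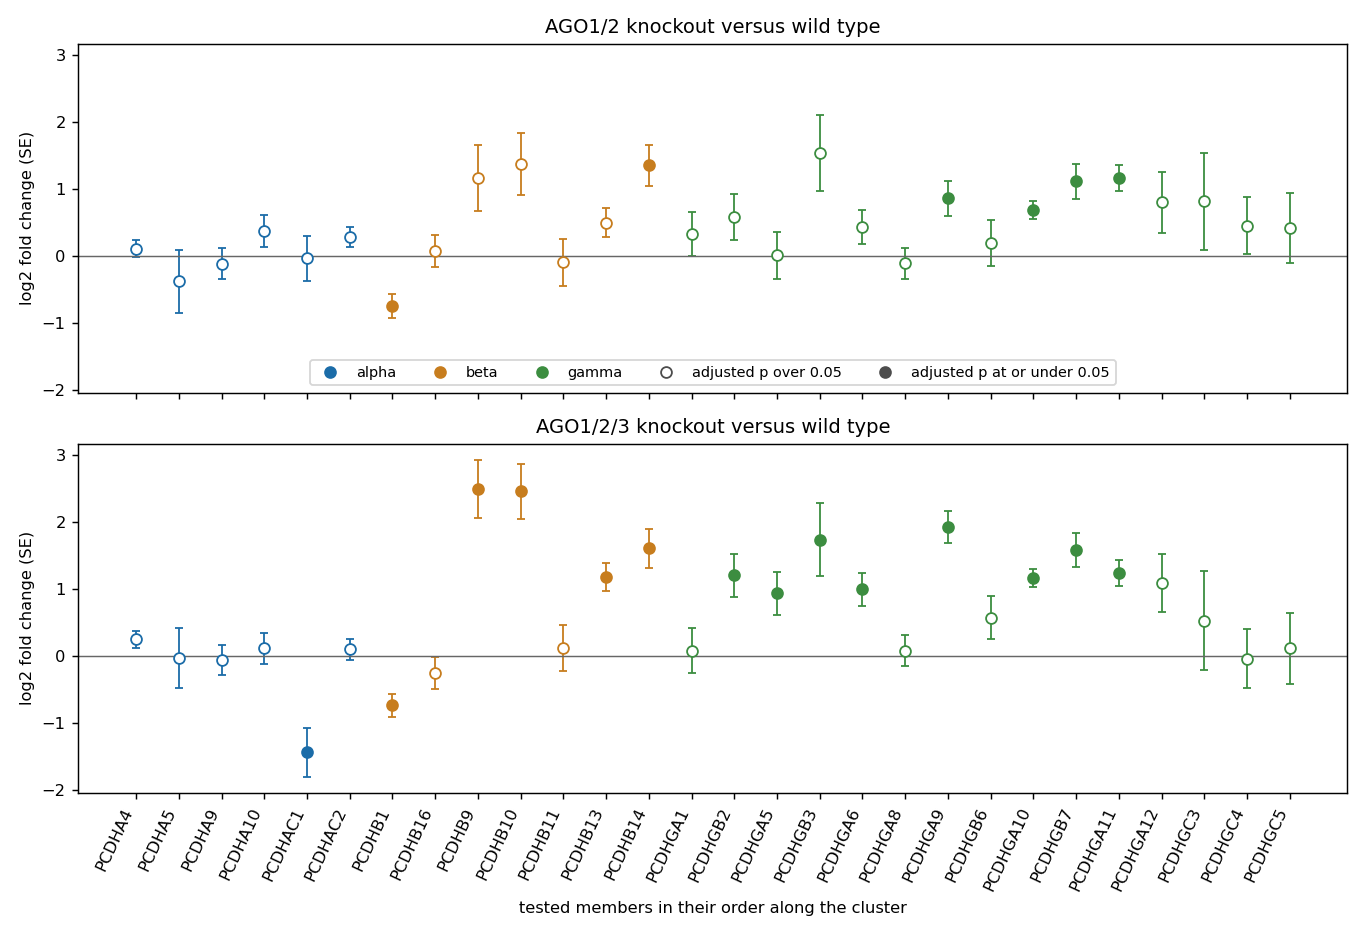
Log2 fold change against wild type (y axis) of the 28 tested members in their order along the cluster (x axis), in *AGO1/2* knockout (upper panel) and *AGO1/2/3*-labelled cells (lower panel). Bars are the standard error of the model and filled points passed the adjusted p of 0.05, and the filled points above 0 in the lower panel run from PCDHB9 to PCDHGA11.

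PCDHGA10 was the most abundant gamma gene in each line. Its level was 8.08, 8.00 and 8.56 CPM in wild-type samples, 7.03, 10.9 and 9.50 CPM in *AGO1* knockout samples, 7.70, 8.08 and 7.30 CPM in *AGO2* knockout samples, 13.1, 14.5 and 12.0 CPM in *AGO1/2* knockout samples and 18.9, 17.8 and 18.6 CPM in *AGO1/2/3*-labelled samples. Each *AGO1/2* sample was above each sample of wild-type and single knockout cells, and each *AGO1/2/3*-labelled sample was above each *AGO1/2* sample. The log2 fold change against wild type was 0.69 ± 0.13 (SE, adjusted p = 0.00248) in *AGO1/2* knockout cells and 1.17 ± 0.13 (adjusted p = 5.79e-06) in *AGO1/2/3*-labelled cells. Per kb of exon it went from 1.24 CPM, behind PCDHAC2, to 2.78 ± 0.087 CPM, ahead of PCDHAC2 at 1.52 ± 0.092 CPM.

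PCDHGA9, whose promoter window above is identical to that of PCDHGA10 at 27 of 30 positions, was 0.783, 0.765 and 0.332 CPM in wild-type samples, 1.15, 1.10 and 1.14 CPM in *AGO1/2* knockout samples and 2.50, 2.17 and 2.44 CPM in *AGO1/2/3*-labelled samples. The 3 lines did not overlap and the samples of *AGO1* and *AGO2* knockout cells (0.394 to 0.694 CPM) stayed within the wild-type range. Its log2 fold change was 1.92 ± 0.24 in *AGO1/2/3*-labelled cells (adjusted p = 1.45e-05) and 0.86 ± 0.26 in *AGO1/2* knockout cells (adjusted p = 0.0338), and the second call was lost in 11 of 24 alternative settings.

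PCDHGB7 and PCDHGA11 sit beside PCDHGA10 in the array and were called in both lines. PCDHGB7 was 1.41, 1.53 and 1.09 CPM in wild-type, 2.85, 2.76 and 3.09 CPM in *AGO1/2* knockout and 4.64, 3.19 and 4.17 CPM in *AGO1/2/3*-labelled samples. Its log2 fold changes were 1.11 ± 0.26 (adjusted p = 0.00754) and 1.58 ± 0.25 (adjusted p = 0.000138). PCDHGA11 was 0.721, 0.542 and 0.724 CPM in wild-type, 1.41, 1.28 and 1.77 CPM in *AGO1/2* knockout and 1.45, 1.68 and 1.59 CPM in *AGO1/2/3*-labelled samples, so the last 2 lines overlapped. Its log2 fold changes were 1.16 ± 0.19 (adjusted p = 0.000747) and 1.24 ± 0.19 (adjusted p = 9.57e-05). PCDHGA11 was also above wild type without overlap in *AGO1* and *AGO2* knockout cells, at 0.882 ± 0.0183 and 0.963 ± 0.113 CPM (n = 3), without passing the test (adjusted p = 0.306 and 0.0667).

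Of the other gamma genes, PCDHGB3 was the lowest that was called. It had 3, 7 and 7 counts in wild-type samples and 30, 8 and 21 counts in *AGO1/2/3*-labelled samples, with a log2 fold change of 1.74 ± 0.54 (adjusted p = 0.0184) that was lost in 3 of 22 alternative settings. PCDHGB2 rose from 0.625 ± 0.172 to 1.43 ± 0.271 CPM (log2 fold change 1.20, adjusted p = 0.00749), PCDHGA6 from 0.758 ± 0.0855 to 1.51 ± 0.147 CPM (0.99, adjusted p = 0.00416) and PCDHGA5 from 0.486 ± 0.131 to 0.940 ± 0.166 CPM (0.94, adjusted p = 0.0294). PCDHGA8, with a CPM above these 4 genes in wild-type cells, was 1.14 ± 0.123 CPM in wild-type and 1.21 ± 0.147 CPM in *AGO1/2/3*-labelled cells (0.077, adjusted p = 0.82). Its promoter window, too, is identical to that of PCDHGA10 at 27 of 30 positions.

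**Figure D3:**
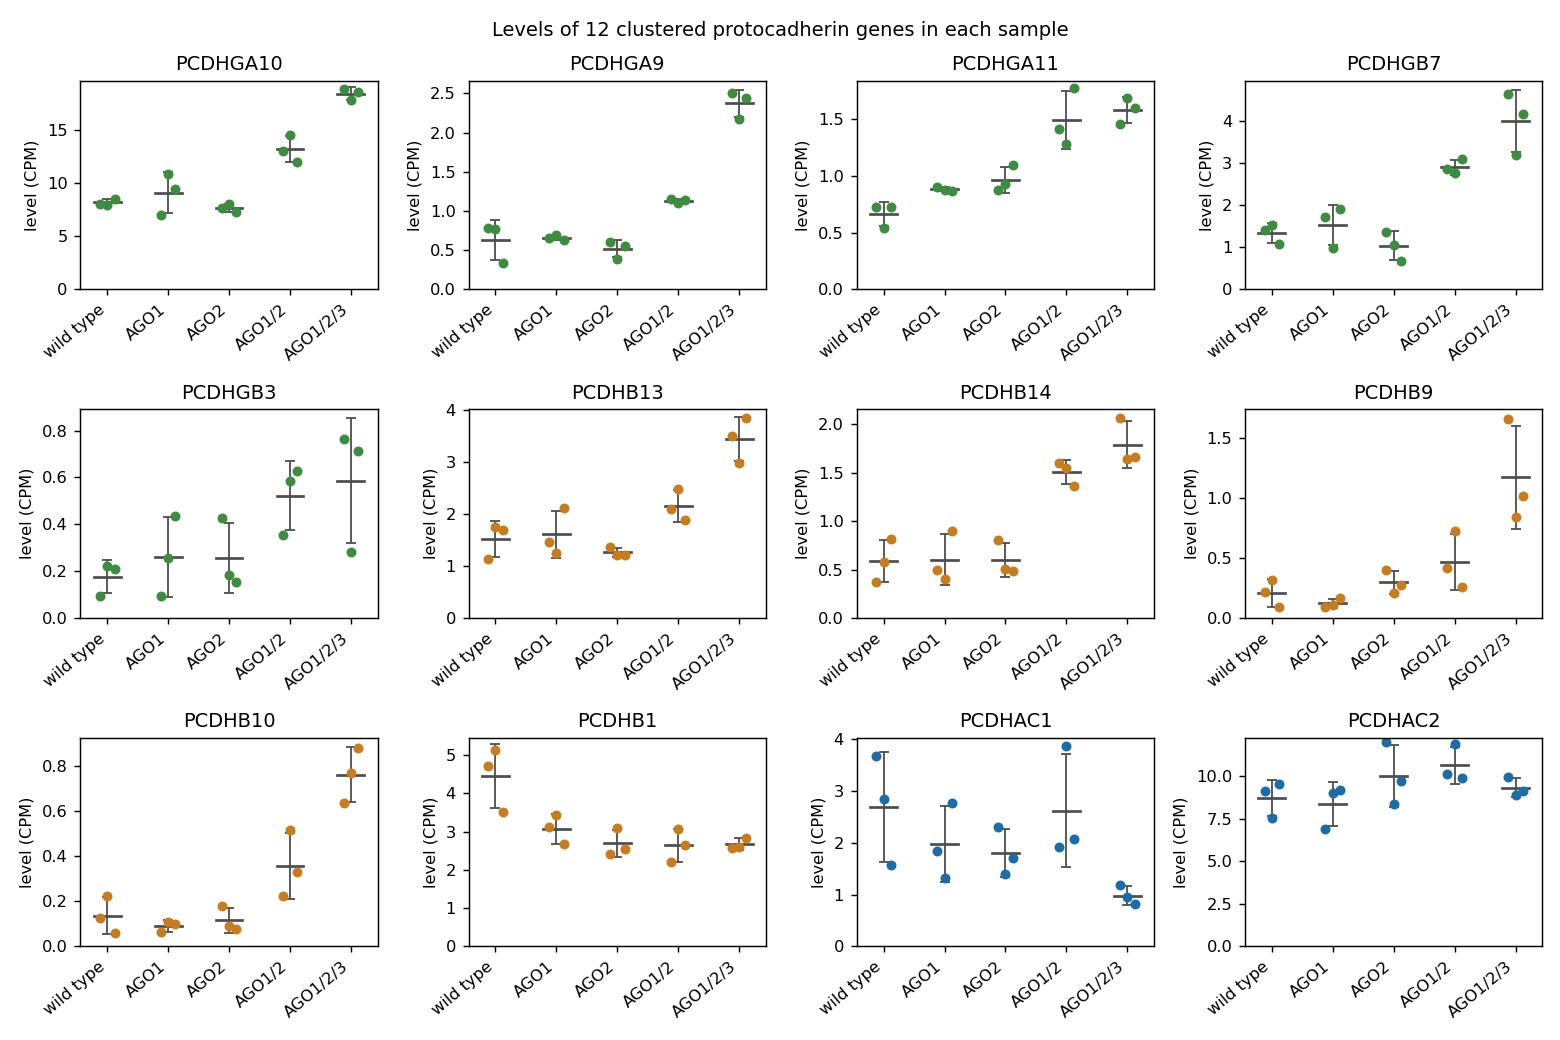
Level (y axis, CPM, from 0 in each panel) of 12 members in each sample of the 5 lines (x axis), with points for samples and bars for the mean and SD of 3 samples. PCDHGA10 and PCDHGA9 are higher in *AGO1/2* than in wild-type samples and higher again in *AGO1/2/3*-labelled samples, PCDHB1 is lower in each knockout line, and PCDHAC1 is lower in *AGO1/2/3*-labelled samples.

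The C-type gamma genes followed neither pattern. PCDHGC3, a C-type isoform with broad expression outside neurons, varied widely within lines. Its counts were 12, 48 and 58 in wild-type, 16, 113 and 56 in *AGO1/2* knockout and 33, 118 and 12 in *AGO1/2/3*-labelled samples, and no difference could be detected (log2 fold change 0.52 ± 0.74, adjusted p = 0.613). Without replicate 2 of *AGO1/2/3*-labelled cells it was -0.94. In *AGO2* knockout samples PCDHGC3 had 9, 13 and 11 counts, PCDHGC4 had 1, 6 and 5 and PCDHGC5 had 15, 3 and 2. The sum of the 3 genes was 0.508 ± 0.0519 CPM there, below each wild-type sample, a ratio of 0.276. This part sum depends on how reads from the shared exons were divided, and the files of this line name another quantification mode. The sum over the whole gamma array overlapped with wild-type cells there, at a ratio of 0.899. Of the 3, PCDHGC4, which neurons need for survival, passed the test (log2 fold change -1.63 ± 0.51, adjusted p = 0.0376), from 9, 11 and 9 counts in wild-type samples, and the call was lost in 7 of 22 alternative settings.

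In the beta array the genes with the largest differences were neighbours with low wild-type levels. PCDHB9 was 0.219, 0.319 and 0.0904 CPM in wild-type samples, 0.416, 0.724 and 0.258 CPM in *AGO1/2* knockout samples and 1.66, 0.841 and 1.02 CPM in *AGO1/2/3*-labelled samples, which were above the rest (log2 fold change 2.50 ± 0.43, adjusted p = 0.000264). PCDHB10 was 0.125, 0.223 and 0.0603 CPM, 0.224, 0.517 and 0.332 CPM and 0.638, 0.771 and 0.881 CPM in the same lines (2.46 ± 0.41, adjusted p = 0.000216). Both rested on few reads in wild-type cells, at 7, 10 and 3 counts for PCDHB9 and 4, 7 and 2 for PCDHB10. PCDHB13, the most abundant of the higher beta genes, was 1.13, 1.75 and 1.69 CPM in wild-type and 3.50, 2.98 and 3.83 CPM in *AGO1/2/3*-labelled samples (1.17 ± 0.21, adjusted p = 0.000356). PCDHB14 was 0.376, 0.574 and 0.814 CPM in wild-type, 1.60, 1.55 and 1.36 CPM in *AGO1/2* knockout and 2.07, 1.65 and 1.66 CPM in *AGO1/2/3*-labelled samples. It was called in both lines (1.35 ± 0.30, adjusted p = 0.00617, and 1.60 ± 0.30, adjusted p = 0.000487). PCDHB16 and PCDHB11, beside or among these genes in the array, lay at -0.25 and 0.11 (adjusted p = 0.434 and 0.823).

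PCDHB1 was the lower gene of the beta array. It was 4.73, 5.13 and 3.53 CPM in wild-type samples, 3.11, 3.43 and 2.67 CPM in *AGO1* knockout samples, 2.42, 3.10 and 2.56 CPM in *AGO2* knockout samples, 2.21, 3.07 and 2.65 CPM in *AGO1/2* knockout samples and 2.58, 2.59 and 2.85 CPM in *AGO1/2/3*-labelled samples. Each knockout sample was below each wild-type sample. The log2 fold changes were -0.54 ± 0.17 (adjusted p = 0.0692), -0.73 ± 0.17 (0.0115), -0.76 ± 0.18 (0.0076) and -0.74 ± 0.17 (0.00314) in that order, of which the last 3 were called. All 4 rest on the same 3 wild-type samples. Between *AGO1/2/3*-labelled and *AGO1/2* knockout cells the difference was 0.016 ± 0.18.

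The alpha array was marked by a single called gene. PCDHAC1 was 3.67, 2.84 and 1.57 CPM in wild-type samples, 1.92, 3.86 and 2.06 CPM in *AGO1/2* knockout samples and 1.17, 0.946 and 0.813 CPM in *AGO1/2/3*-labelled samples, which lay below the samples of both other lines. Its log2 fold change against wild type was -1.44 ± 0.37 (adjusted p = 0.00547), and its share of the alpha counts went from a mean of 11.3% to 4.05%. Its rank among the members by level per kb went from 5 to 21. PCDHAC2, the other C-type alpha gene, was 8.75 ± 1.06 CPM in wild-type and 9.34 ± 0.564 CPM in *AGO1/2/3*-labelled cells (0.095, adjusted p = 0.662), and PCDHA4 was 9.26 ± 0.528 and 11.0 ± 1.78 CPM (0.24, adjusted p = 0.126). PCDHA9 and PCDHA10 lay at -0.064 and 0.11 (adjusted p = 0.854 and 0.752).

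In *AGO1/2* knockout cells 5 of the 28 tested members were higher than in wild-type cells and 1 was lower, while 8.37% of all tested genes were higher and 8.35% lower. The 5 were PCDHB14, PCDHGA9, PCDHGA10, PCDHGB7 and PCDHGA11, and the lower one was PCDHB1. PCDHGB3 and PCDHB10 had larger log2 fold changes (1.54 and 1.37) but also larger errors (0.56 and 0.47) and did not pass (adjusted p = 0.0773 and 0.0561).

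Single knockouts gave few calls. In *AGO1* knockout cells 0 of the 28 were higher and 0 lower by edgeR's test and by DESeq2. Of all tested genes, 3.17% and 5.50% were called by edgeR and 3.75% and 6.41% by DESeq2. By edgeR's test 2 members, both lower, had an unadjusted p under 0.05. In *AGO2* knockout cells 0 were higher and 2 were lower, PCDHB1 and PCDHGC4, beside 8.55% and 10.8% of all tested genes. DESeq2 called 0 higher and 1 lower there, beside 11.6% and 10.6% of all genes it tested. By edgeR's test 1 member was higher at an unadjusted p under 0.05. The beta sum in *AGO2* knockout cells, 6.64 ± 0.304 CPM, was below that of wild-type cells without overlap, at a ratio of 0.747. Without PCDHB1 it was 3.95 ± 0.540 CPM, overlapping with wild-type cells at a ratio of 0.892.

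**Figure D4:**
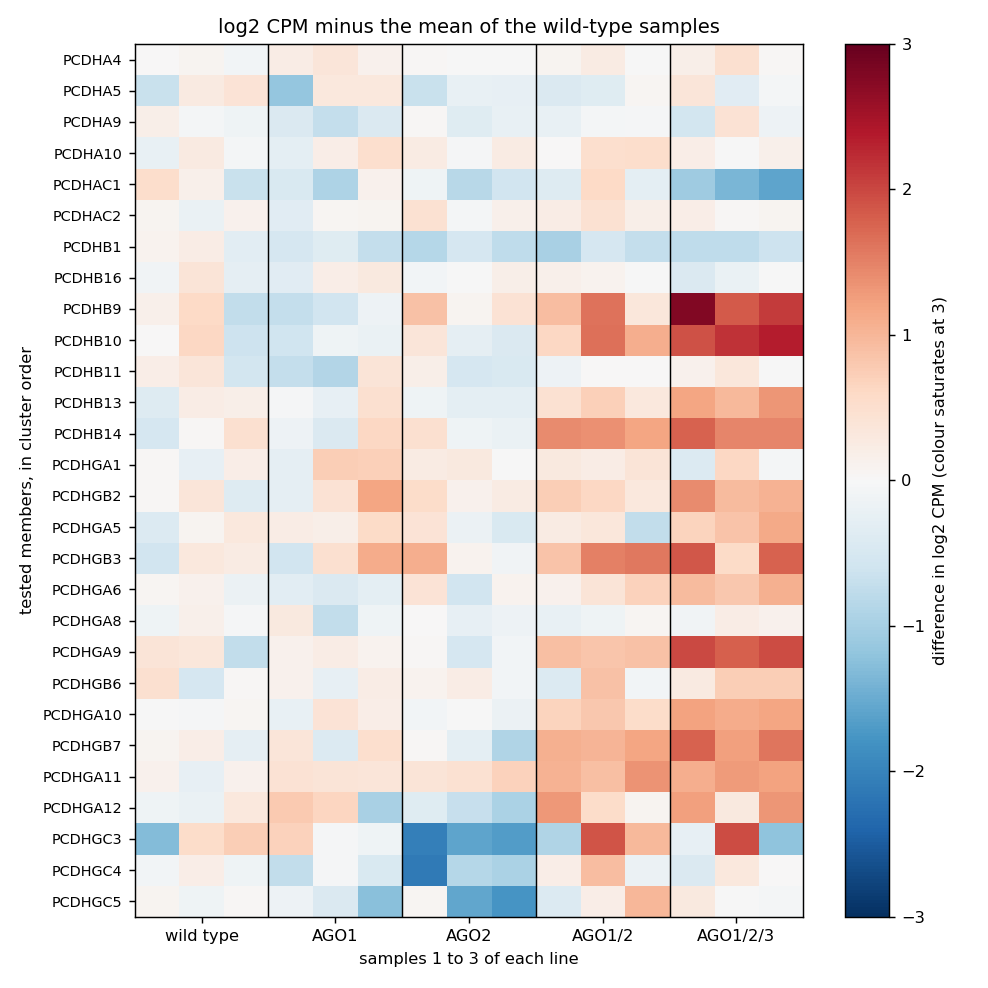
Difference in log2 CPM from the mean of the wild-type samples (colour, prior count of 2, saturating at 3) for the 28 tested members in cluster order (rows) in the 15 samples (columns, grouped by line). Red cells above wild type gather in the beta and gamma rows of the *AGO1/2* and *AGO1/2/3*-labelled samples, and the gamma C rows at the bottom are blue in the *AGO2* samples except for PCDHGC5 in replicate 1, which lies at 0.058.

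The step from the *AGO1/2* to the *AGO1/2/3*-labelled line was tested directly. It gave 5 higher members and 1 lower member, beside 11.9% and 10.0% of all tested genes. PCDHB10, among the 5, passed the filter only through the *AGO1/2/3*-labelled samples, and without it 4 of 27 tested members were higher. PCDHB9 rose by 1.34 ± 0.38 on the log2 scale (adjusted p = 0.0204), PCDHB10 by 1.08 ± 0.36 (0.0416), PCDHGA9 by 1.07 ± 0.23 (0.00324), PCDHB13 by 0.68 ± 0.20 (0.0267) and PCDHGA10 by 0.48 ± 0.13 (0.0155), and PCDHAC1 fell by 1.40 (SE 0.37, adjusted p = 0.0131). PCDHGA11 and PCDHB14, called in both lines against wild type, differed by 0.085 and 0.26 at this step (adjusted p = 0.789 and 0.557). The count of higher members was 1 without replicate 3 of *AGO1/2* cells or replicate 1 of *AGO1/2/3*-labelled cells and 2 without replicate 1 of the former or replicate 3 of the latter. The lower call of PCDHAC1 was lost, leaving 0, without replicate 2 of *AGO1/2* cells or replicate 3 of *AGO1/2/3*-labelled cells.

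Other genes of the region were compared to show where the arrays differ from their surroundings. Of 38 other protein-coding genes inside the cluster or within 1 Mb of its ends, 35 could be tested, of which 5 were higher and 7 lower in *AGO1/2/3*-labelled than in wild-type cells, beside 20.3% and 19.8% of all tested genes and with a median log2 fold change of -0.043. They ranged from 1.27 for NRG2, a growth factor gene, to -1.14 for HBEGF, another growth factor gene. TAF7, which encodes a subunit of the general transcription factor TFIID and lies at chr5:141259884-141320784 between the beta and gamma arrays, was 61.5 CPM in wild-type cells and fell by 0.28 on the log2 scale (adjusted p = 0.029). SLC25A2, a mitochondrial carrier gene beside it, was not called (1.13 ± 0.62, adjusted p = 0.161). Of 7 pseudogenes and noncoding genes with clustered protocadherin symbols, 2 could be tested and 0 were called by edgeR's test, at log2 fold changes of 0.38 and 0.62.

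**Figure D5:**
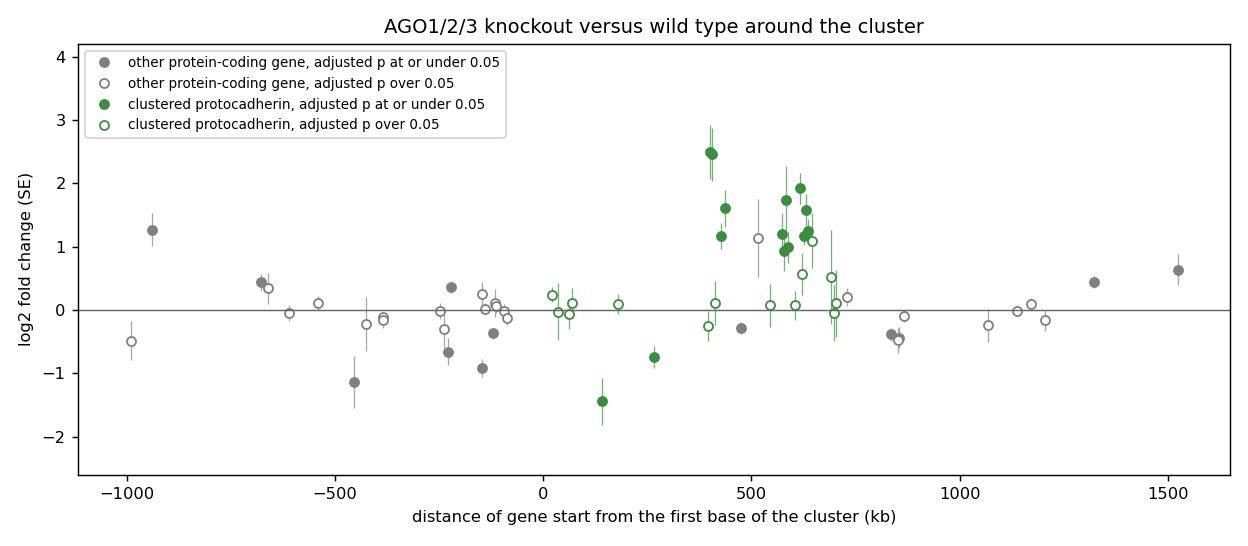
Log2 fold change between *AGO1/2/3*-labelled and wild-type cells (y axis, bars are the standard error of the model) of the tested clustered protocadherins and the other tested protein-coding genes within 1 Mb, by the distance of the gene's start from the first base of the cluster (x axis, kb). Filled points passed the adjusted p of 0.05, and the filled protocadherin points above 0 lie between 401 and 635 kb.

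Of 12 nonclustered protocadherins, PCDH1 and PCDH12 are among the flanking genes counted above, where PCDH1 was not called (-0.24, adjusted p = 0.503) and PCDH12 was below the filter. Of the other 10, which lie elsewhere in the genome, 5 could be tested. In *AGO1/2/3*-labelled cells 1 was higher and 1 lower, counts near the 20.3% and 19.8% of all tested genes. PCDH7 fell by 5.94 on the log2 scale (adjusted p = 9.94e-10), from 193, 156 and 195 CPM to 3.09, 2.77 and 2.98 CPM, with *AGO1/2* knockout samples between at 19.1, 31.5 and 43.0 CPM. PCDH19, a delta protocadherin of neurons, rose by 0.95 (adjusted p = 0.00442).

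Genes known for the control of clustered protocadherin promoters were followed in the same fit. Of 25 cluster architecture and silencing factors, 12 were higher and 1 lower in *AGO1/2/3*-labelled cells, beside 20.3% and 19.8% of all tested genes. The largest differences were in TET1 (1.78, adjusted p = 4.74e-08) and TET3 (1.08, adjusted p = 5.87e-06), which oxidise methylated cytosine, and in UHRF1 (0.93, adjusted p = 0.0198), which helps to copy DNA methylation. The de novo methyltransferase DNMT3B was the lower one (-0.72, adjusted p = 0.00289), and CTCF, which binds the promoters, rose by 0.34 (adjusted p = 0.0375). TET1 was 19.9 CPM in wild-type cells and higher in *AGO1/2* knockout cells too (0.81, adjusted p = 0.000387). UHRF1 varied in wild-type samples, at 138, 55.4 and 133 CPM. It was 198, 267 and 238 CPM in *AGO2* knockout samples. CTCF was 84.7 ± 5.41 CPM in wild-type and 104 ± 10.0 CPM in *AGO2* knockout cells (SD of 3 samples). Of 13 genes for the processing and signalling partners of the proteins, 7 were higher and 2 lower, beside the same shares of all tested genes. ADAM10, the protease that sheds clustered protocadherins, rose by 0.55 (adjusted p = 0.000787), whereas the kinase gene PTK2B and AXIN1, both known to bind them, fell by 1.55 (adjusted p = 5.6e-06) and 0.67 (adjusted p = 0.000324). The part of these genes in the levels of the clustered protocadherins was not tested.

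Markers of cell types were read beside these levels. The 8 colorectal epithelial markers summed to 1719.8 to 1927 CPM in wild-type and 1636 to 2124 CPM in *AGO1/2/3*-labelled samples. VIL1 and LGALS4 were below the filter. Of the other 6 markers 1 was higher and 3 were lower in *AGO1/2/3*-labelled cells, beside 20.3% and 19.8% of all tested genes. CDH1, the epithelial cadherin, fell by 3.51 on the log2 scale and EPCAM by 1.74 (adjusted p = 7.51e-08 and 6.02e-09). KRT8 went the other way, from 642 ± 46.4 CPM in wild-type to 852 ± 126 CPM in *AGO1/2/3*-labelled cells (SD of 3 samples). Of 8 neuron markers, 6 could be tested, of which 1 was higher (TUBB3, 1.14) and 2 lower (SYT1, -1.19, and MAP2, -1.60), beside the same shares. The summed level of the 8 was 173 to 231 CPM in wild-type and 182 to 194 CPM in *AGO1/2/3*-labelled samples. Of 6 fibroblast markers 4 could be tested and 0 were called by edgeR's test, beside the same shares. The summed level of the 6 was 23.6 to 30.9 CPM and 27.0 to 30.01 CPM in the same lines. The part of these markers in the levels of the clustered protocadherins was not tested.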

How the data were processed

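RNAseq of 15 samples (5 lines, 3 biological replicates each) was used, and 8 eCLIP samples were not analysed here. According to the methods and the submitters' processing notes, the libraries were ribosomal RNA depleted, stranded and paired-end, and reads were aligned to hg38 with STAR and quantified with Salmon. The notes name STAR 2.5.3a and Salmon 0.11.0, whereas other versions stand in the methods, and the strand setting was not given in the sources used here. The values deposited by the authors are estimated counts per gene (expected counts), not normalized for depth. Here they were rounded to whole numbers, filtered with filterByExpr, scaled by TMM and fitted with a mean per line by the quasi-likelihood test of edgeR 4.0.16 (R 4.3.3), called at an adjusted p at or under 0.05. DESeq2 1.42.0 was an alternative, as were other scalings, filters, sample sets, a 2-fold minimum, a replicate block and leaving out each sample. Standard errors are the log2 fold change divided by the square root of the F statistic. The fit was tested on simulated data. Tables and figures were made with Python 3.11.15, pandas 2.3.3, numpy 2.4.6 and matplotlib 3.10.9.

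Total counts were 27709971 to 45271146 per sample, where 1 count is 0.0224 to 0.0368 CPM, and counting limits cover counting error only. Gene models are from GENCODE release 44, which held 57167 of the 57875 identifiers, and levels per kb use the length of all exons of a gene. No pair of the 105 pairs of files was identical. The members and lists were chosen with earlier results of these data known. Genes were named by a rule: the 3 members with the highest mean CPM in each of the alpha, beta, gamma A and gamma B subgroups, the C-type genes, up to 5 called members per direction and comparison, and up to 3 called genes per other list. Further members (PCDHGA1, PCDHGA5, PCDHGA6, PCDHGA12, PCDHB6, PCDHB11, PCDHB16) and genes (SLC25A2, TAF7, PCDH1, PCDH12, CTCF, DNMT3B, VIL1, LGALS4, KRT8) were named after their values had been seen.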

Additional observations from a re-analysis of the deposited data

How the results depend on the processing

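Between *AGO1/2/3*-labelled and wild-type cells the count of higher members was 12 and ranged from 8 (at least 10 counts in every sample) to 15 (no filter). Of all genes tested in these 2 settings, 21.4% and 10.1% were higher. As the genes tested and the share called changed with the setting, the counts here and below do not rank the settings. Leaving out samples gave 11 to 14. The 2 lower members became 1 with a minimum of 2-fold. In *AGO1* knockout cells 1 higher member appeared without a filter and 1 lower with total counts only, and leaving out samples gave 0 to 1 lower. In *AGO2* knockout cells the 2 lower members became 1 with DESeq2, with at least 10 counts, with only the 6 samples compared and with a 2-fold minimum, and 1 to 3 when samples were left out (1 without replicates 1 or 2 of wild type or replicates 2 or 3 of *AGO2* cells). In *AGO1/2* knockout cells the 5 higher members became 3 with a 2-fold minimum, and the 1 lower became 2 without a filter and 0 with only the 6 samples compared or the 2-fold minimum. Between *AGO1/2/3*-labelled and *AGO1/2* cells the 5 higher became 3 with at least 10 counts or the 2-fold minimum and 1 to 6 when samples were left out, and the 1 lower became 0 to 1. The cause was not tested. Without the 3 *AGO2* samples, an alternative chosen after seeing the data, the counts against wild type stayed at 5 and 1 in *AGO1/2* and 12 and 2 in *AGO1/2/3*-labelled cells. With a filter set without the *AGO1/2/3*-labelled samples, also chosen after seeing the data, 11 members were higher in these cells.

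Sums in CPM moved with total counts only, to 25.0 for alpha and 19.3 for gamma in wild-type cells and 37.2 for gamma in *AGO1/2/3*-labelled cells; in that line this scaling put the all-gene median at -0.15 (log2). Same-numbered samples did not deviate together (mean correlation -0.00669, 30 pairs), and the replicate block changed no count (0 and 0, 0 and 2, 5 and 1, 12 and 2, 5 and 1). Over 35 results for named genes and 825 alternatives, 763 kept direction and side of the threshold, 48 lost the call and 14 changed sign. The sign changes were of uncalled genes between *AGO1/2/3*-labelled and wild-type cells. With total counts only they were -0.032 for PCDHA10, -0.064 for PCDHGA8, -0.046 for PCDHAC2 and -0.029 for PCDHGC5. With a sample left out the values ran from -0.38 to 0.14 for PCDHA9, -0.020 to 0.24 for PCDHA10, -0.010 to 0.16 for PCDHGA8, -0.027 to 0.13 for PCDHAC2, -0.94 to 0.94 for PCDHGC3, -0.28 to 0.17 for PCDHGC4 and -0.069 to 0.15 for PCDHGC5. The calls lost most often were PCDHB10 between *AGO1/2/3*-labelled and *AGO1/2* cells (13 of 22 alternatives) and PCDHGA9 in *AGO1/2* cells (11 of 24). Depth limits the genes with under 10 counts per wild-type sample, such as PCDHB10 and PCDHGB3.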
